A study of Mus musculus with 15 samples.

Results

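Cholesterol-loaded Trem2-/- BV2 cells were set against unloaded wild-type (WT) BV2 cells, to find which genes stood at the level of untreated WT cells once the Trem2-deficient cells had received cholesterol and which stayed apart from it. BV2 is a mouse microglial line that served as a macrophage model. RNA-seq counts were compared between 4 libraries of Trem2-/- foamy cells and 4 libraries of WT non-foamy cells, chosen by their labels from the 15 libraries of the series, and every gene was considered. Foamy cells had been kept overnight with 20 μg/ml soluble cholesterol, and non-foamy cells in media alone. Per the methods of the study, soluble cholesterol was made by incubating cholesterol with methyl-beta-cyclodextrin. No group is labelled as given this carrier alone, so treatment with cholesterol means here cholesterol with its carrier. WT cells carry intact Trem2; for Trem2-/- cells, BV2 cells that express Cas9 were given a guide RNA against Trem2 and grown from single wells after limiting dilution. The 2 groups therefore differ in genotype, in clonal history and in cholesterol with its carrier at once. The shares of these in a difference cannot be told apart in this contrast. The labels number the samples without saying whether they were separate cultures, so the tests measure the spread between these samples, which may be technical. Trem2-/- non-foamy cells (3 libraries) and WT foamy cells (4 libraries) entered the same fit, and levels of the former are given where they help to place a gene.

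TREM2 is a surface receptor of macrophages and microglia that binds lipids, lipoproteins and dying cells and signals through the adaptor Tyrobp and the kinase Syk. Cells hold their cholesterol steady with 2 opposed programs: when membrane sterol is low, SREBP2 is released and switches on sterol synthesis and uptake, and when sterol is plentiful, oxysterols activate the LXR receptors, which switch on efflux through Abca1 and Abcg1. Macrophages that take up more cholesterol than they export store it as esters in lipid droplets and are called foamy.

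The 8 libraries held 23538963 to 41683825 counted reads. Levels are given as CPM (counts scaled by library size) after TMM scaling, which compares libraries for 1 gene and not genes with each other. Of 54390 listed genes, 14237 passed the filter on low counts. Trem2 itself was at 329, 345, 415 and 327 CPM in WT non-foamy cells and at 227, 227, 218 and 226 CPM in Trem2-/- foamy cells. Every knockout library was below every WT library, with a log2 fold change of -0.66 ± 0.07 (SE). The transcript was lowered and not lost, and reads from an edited gene do not show whether protein is made. Macrophage markers were abundant (10557 to 11594 CPM summed over 13 genes in Trem2-/- foamy cells, against 6397 to 7866 CPM in WT non-foamy cells). Lyz2 was the highest of them, at up to 6693 CPM. Of the 13, 9 were higher in Trem2-/- foamy cells (20.6% of all tested genes were), 1 was lower (21.7%), 2 were at the WT level and 1 was unresolved, by the rules given below. The microglial markers Tmem119 and Cx3cr1 were under 2 CPM in each of the 8 libraries. Markers of other cell types were near 0, with all 6 fibroblast genes at 0 and an endothelial sum of 16.8 to 20.3 CPM in WT non-foamy cells against 23.5 to 32.6 CPM in Trem2-/- foamy cells, most of it Vwf; their part in the results was not tested.

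WT non-foamy replicate 3 stood apart from the other libraries of its group. It had the fewest reads, genes with under 1500 exonic bases were higher in it (median deviation from the group 0.31, log2) and genes with over 6000 lower (-0.13). Trem2-/- foamy replicate 4 leaned the same way on short genes (0.10). Results of named genes that change without these libraries are given with the change.

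Expression in loaded Trem2-/- cells was far from that of unloaded WT cells at many genes, but mostly by small folds. A gene was called apart when its p-value from edgeR's quasi-likelihood test, adjusted by Benjamini-Hochberg over all tested genes, was under 0.05. By this rule 6016 genes (42.3%) were called, 2930 higher (20.6%) and 3086 lower (21.7%) in Trem2-/- foamy cells. Called genes had a median difference of 0.45 (absolute log2 fold change), and 715 genes (5.02%) were called with an absolute log2 fold change of 1 or more. The 4 libraries of 1 group all lay above or all below those of the other at 5097 genes (35.8%). With total counts in place of TMM scaling, 28.9% of the called genes were higher, against 48.7% with TMM, because that scaling moved the median of all genes from 0.02 to -0.11; directions are given here relative to the TMM scale.

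A p that misses the threshold does not show that a gene reached the WT level, so this was tested separately. A gene was placed at the WT non-foamy level when 2 one-sided tests put its difference inside 1.3-fold either way (adjusted p under 0.05) and it was not called. This held for 3021 genes (21.2%). Another 375 genes were called although their difference lay inside 1.3-fold, and 5200 genes were neither called nor shown to be at the level. The median level of the unresolved genes was 1.43 CPM, against 39.6 CPM for genes at the level and 28.2 CPM for genes apart, although some abundant genes were unresolved too.

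**Figure D1:**
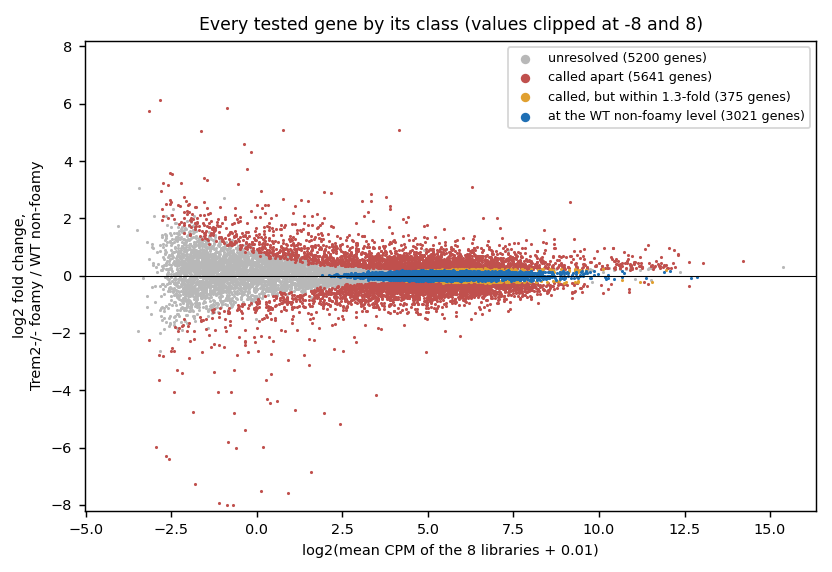
Log2 fold change of Trem2-/- foamy against WT non-foamy cells for each tested gene (y axis), against the log2 mean CPM of the 8 libraries plus 0.01 (x axis), with 1 point a gene and the colour giving its class. The 3021 genes at the WT level (blue) form a band around 0 that begins at middle levels, the 5641 genes apart by more than can be placed inside 1.3-fold (red) lie on both sides of it, and most of the 5200 unresolved genes (grey) lie at the low end.

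Sterol synthesis stayed well below the unloaded WT level. Of 19 tested genes of the pathway, 18 were lower in Trem2-/- foamy cells and none was higher, against 21.7% of all tested genes lower, and their median log2 fold change was -0.64 (0.02 for all genes). The remaining gene was at the WT level. Summed over the list, the WT non-foamy libraries held 1263 to 1269 CPM and the Trem2-/- foamy libraries 757 to 797 CPM. In every alternative run, 18 genes were called lower and 1 was at the level.

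Among the early enzymes, Hmgcs1, which makes HMG-CoA, was at 92.8, 96.8, 90.8 and 99.3 CPM in WT non-foamy cells and at 64.5, 58.8, 57.3 and 62.7 CPM in Trem2-/- foamy cells. Idi1, which isomerises the isoprenoid unit, was at 51.1, 52.7, 55.6 and 51.1 CPM against 22.4, 21.0, 20.1 and 27.0 CPM. In both genes the groups were well separated, and Idi1 had the largest fall of the list, with a log2 fold change of -1.22 ± 0.09 (SE, adjusted p = 4.5e-10, edgeR) against -0.64 ± 0.06 for Hmgcs1 (adjusted p = 4.1e-08). Mvd, which decarboxylates mevalonate pyrophosphate, came closer to the WT level, with 47.2, 56.1, 53.1 and 52.9 CPM against 37.2, 40.3, 42.2 and 37.0 CPM (log2 fold change -0.42 ± 0.08). Pmvk was closest among the called genes (-0.37 ± 0.06).

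Among the late enzymes, Cyp51, the lanosterol demethylase, was at 136, 130, 140 and 131 CPM in WT non-foamy cells and at 63.3, 61.5, 63.9 and 64.3 CPM in Trem2-/- foamy cells, a log2 fold change of -1.08 ± 0.06 (adjusted p = 2.1e-12, edgeR). Msmo1, the next demethylase, had a log2 fold change of -0.94 ± 0.07, Sqle, the squalene epoxidase, -0.57 ± 0.07, and Fdft1, which makes squalene, -0.76 ± 0.06. Ebp, the sterol isomerase, was the member at the WT level. Its levels were 29.5, 32.2, 39.1 and 31.3 CPM against 31.97, 31.2, 30.3 and 33.6 CPM, so the groups overlapped, and the log2 fold change of -0.05 (95% confidence interval -0.24 to 0.13) lay inside the margin (adjusted p = 0.0071 for equivalence). In Fdps, Idi1 and Acat2, 17.7 to 39.1% of the stretches of 50 bases also occur in other genes, and 26.7% of the Fdps exons overlap another gene, so their counts are less certain.

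**Figure D2:**
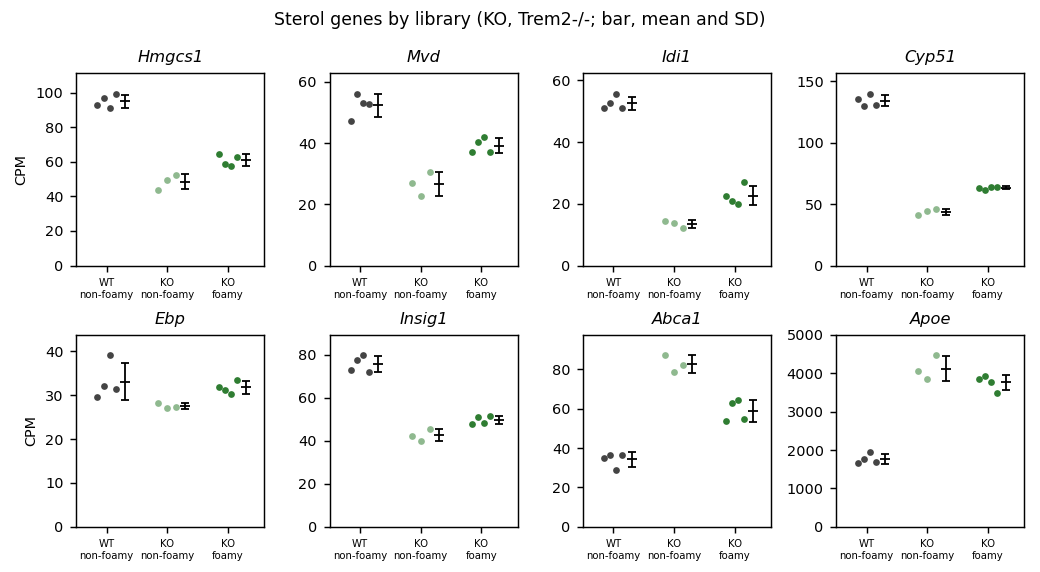
CPM (y axis, from 0) of 8 sterol genes in the WT non-foamy, Trem2-/- non-foamy and Trem2-/- foamy libraries (x axis), with 1 point a library and a bar for mean and SD. Hmgcs1, Mvd, Idi1 and Cyp51 in the foamy knockout lie between the unloaded knockout and the WT libraries, Ebp overlaps the WT libraries, and Abca1 and Apoe lie above them.

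Of 6 tested genes of sterol sensing and other SREBP2 targets, 5 were lower and 1 was higher, against 21.7% and 20.6% of all tested genes. Insig1, which holds SREBP2 back, was at 72.9, 77.4, 79.7 and 71.8 CPM in WT non-foamy cells and at 48.0, 50.8, 48.4 and 51.5 CPM in Trem2-/- foamy cells. All WT libraries were above all knockout libraries, and the log2 fold change was -0.60 ± 0.06 (adjusted p = 2.9e-08, edgeR). Srebf2, which encodes SREBP2, was lower (-0.56 ± 0.11), as was Stard4, a carrier of sterol inside the cell (-0.65 ± 0.06). Insig2, a relative of Insig1, was higher, by 0.25 ± 0.06, and lost its call with total counts alone.

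The promoters of the synthesis genes are shown because 18 of these 19 genes were lower. RefSeq gives a promoter for 15 of the 19 genes in build GRCm38.p6, and the 250 bases before the start were searched on both strands. The letters CCAAT, the box bound by NF-Y, which acts beside SREBP2, were found in 14 of the 15 (93.3%), against 40.5% of the tested genes with a promoter and 33.8% of all promoters. The letters TCACNCCAC, a form of the sterol regulatory element, were found in 1, Hmgcs1, against 1.22% of tested genes and 1.05% of all promoters. Ebp, which was at the WT level, also holds CCAAT. A match is a description of the letters and not of binding. Each line gives 100 bases of the strand of the gene, 5′ to 3′, from chr13:119690168-119690267 (plus strand) for Hmgcs1, chr8:122443423-122443522 (minus strand) for Mvd and chrX:8193516-8193615 (minus strand) for Ebp, with the sterol regulatory element of Hmgcs1 and the CCAAT boxes of Mvd and Ebp, read on either strand, in capitals.
Hmgcs1: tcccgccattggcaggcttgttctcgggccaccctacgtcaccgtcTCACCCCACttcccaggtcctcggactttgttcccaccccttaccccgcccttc
Mvd: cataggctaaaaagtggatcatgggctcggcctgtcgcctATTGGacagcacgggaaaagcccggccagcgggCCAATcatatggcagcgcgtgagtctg
Ebp: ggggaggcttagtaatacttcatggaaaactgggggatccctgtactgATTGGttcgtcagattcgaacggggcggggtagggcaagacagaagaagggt

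The genes of LXR and cholesterol efflux stood mostly on the other side of the WT level. Of 16 tested genes, 10 were higher (20.6% of all genes were) and 3 lower (21.7% of all genes), with a median log2 fold change of 0.54. Trem2-/- non-foamy cells, without cholesterol, also had 10 of these genes called higher than WT non-foamy cells and 2 lower, with a median of 0.61. Abca1, the transporter that loads apolipoprotein A-I, was at 34.8, 36.8, 28.9 and 36.5 CPM in WT non-foamy cells and at 53.7, 62.9, 64.3 and 54.6 CPM in Trem2-/- foamy cells. Abcg1, which exports to HDL, was at 45.0, 45.1, 34.4 and 45.9 CPM against 75.2, 81.4, 71.6 and 65.1 CPM. The groups did not overlap in either, and both had a log2 fold change of 0.78 ± 0.10 (adjusted p = 7.3e-07 and 1.0e-06, edgeR).

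Apoe, a lipid carrier that macrophages secrete, was at 1666, 1773, 1949 and 1693 CPM against 3852, 3928, 3769 and 3491 CPM. Its libraries were far apart, with a log2 fold change of 1.09 ± 0.07. Npc2 and Npc1, which move cholesterol out of the lysosome, were higher by 0.83 ± 0.07 and 0.64 ± 0.11. Mylip, an LXR-induced ubiquitin ligase, was higher by 0.42 ± 0.07. Of the receptors themselves, Nr1h2 (LXRβ) was at the WT level, with 33.8 ± 2.54 CPM (SD, n = 4) in WT non-foamy cells and 34.0 ± 3.39 CPM in Trem2-/- foamy cells (adjusted p = 0.0027 for equivalence), and Nr1h3 (LXRα) was higher by 0.29 ± 0.09, a call lost in 3 of the runs that left out a library and with total counts alone. Srebf1, Scarb1 and Lpcat3 were lower (-0.39 ± 0.11, -0.44 ± 0.08 and -0.30 ± 0.09).

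Genes of cholesterol esters and lipid droplets, for their breakdown as well as for storage, were mostly above the WT level. Of 11 tested genes for esters and droplets, 7 were higher and 2 lower, against 20.6% and 21.7% of all tested genes. The 2 lower calls became 0 without WT non-foamy replicate 2 and 1 when any single Trem2-/- foamy library was left out. Plin2, the coat protein of lipid droplets, was at 186, 189, 223 and 181 CPM in WT non-foamy cells and at 314, 292, 307 and 328 CPM in Trem2-/- foamy cells, without overlap (log2 fold change 0.67 ± 0.07, adjusted p = 4.1e-08, edgeR). Soat1, which makes the esters, was higher by 0.56 ± 0.06. Nceh1 and Lipa, which cleave them, were higher by 0.66 ± 0.06 and 0.67 ± 0.06, and the triglyceride lipase Pnpla2 by 0.92 ± 0.09. Abhd5, its co-activator, was at the WT level (0.14, interval -0.05 to 0.33), although this was no longer shown in 6 of the 8 runs that left out a library.

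Of 16 tested PPAR targets and genes of fatty acid oxidation, 9 were higher (20.6% of all genes), none lower and 5 at the WT level (21.2%). With total counts alone, 5 were higher and 8 at the level. Fabp4, a fatty acid carrier, was at 68.8, 58.0, 72.9 and 65.2 CPM against 206, 201, 203 and 237 CPM. The knockout libraries were all far above the WT libraries, with a log2 fold change of 1.68 ± 0.08 (adjusted p = 1.7e-12, edgeR). Cd36, the scavenger receptor for oxidized LDL, was at 18.0, 16.5, 18.0 and 16.5 CPM against 24.8, 27.8, 22.8 and 27.96 CPM, also without overlap (0.58 ± 0.09). Cpt1a, which opens the mitochondrion to fatty acids, was at 23.8, 24.6, 24.7 and 25.1 CPM against 41.7, 50.2, 45.2 and 43.9 CPM (0.88 ± 0.07). Enzymes after this step that were at the WT level included Acadm (0.05, interval -0.07 to 0.17), Cpt2 (0.05, interval -0.13 to 0.23) and Hadhb (0.12, interval -0.02 to 0.25, no longer shown without Trem2-/- foamy replicate 2), while Hadha was higher by 0.37 ± 0.06. Ucp2 was at the WT level (-0.04 ± 0.07) except with total counts alone. Pparg was at most 0.352 CPM in these libraries.

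Few genes were called between the knockout groups. Between Trem2-/- foamy and Trem2-/- non-foamy cells, 20 genes (0.14%) were called, 15 higher and 5 lower with cholesterol, while 6207 genes (43.6%) were called between Trem2-/- non-foamy and WT non-foamy cells. These comparisons share libraries with the one described here, so their values are set side by side without a test of their likeness. The part of the carrier in differences between the knockout groups was not tested. Against the WT non-foamy level, 16 of the 20 were apart, 2 were called inside 1.3-fold, 1 was at the level and 1 was unresolved. Zbtb32, Slc39a10, Plau and Ndrg1, which are on none of the lists, were named after their values were seen.

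Synthesis genes were among those higher with cholesterol, and none of those named reached the WT level. The mean of Idi1 was 13.5 CPM in Trem2-/- non-foamy, 22.6 CPM in Trem2-/- foamy and 52.6 CPM in WT non-foamy cells. Msmo1 stood at 55.5, 88.3 and 170 CPM in the same order, and Cyp51 at 43.8, 63.3 and 134 CPM. Mvd stood at 26.8, 39.2 and 52.3 CPM. Fdps and Fdft1 were also called between the knockout groups. Zbtb32, a transcriptional repressor, stood at 4.43, 6.64 and 14.2 CPM in that order. The efflux gene Abca1 was called in the other direction, with 82.7 CPM without and 58.9 CPM with cholesterol against 34.2 CPM in WT, and Mylip likewise, with 38.8, 28.6 and 21.3 CPM. At the genes named here, loaded knockout cells lay between unloaded knockout and unloaded WT cells and stayed apart from the latter.

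Plin2, Cd36 and Cpt1a were above the WT level in the loaded knockout. In Trem2-/- non-foamy cells their means were 208, 16.3 and 28.9 CPM, against 195, 17.2 and 24.6 CPM in WT non-foamy cells, and in Trem2-/- foamy cells 310, 25.8 and 45.2 CPM. Plin2 and Cd36 were not called without cholesterol (0.10 ± 0.07 and -0.08 ± 0.10), and Cpt1a was called with a small difference (0.24 ± 0.08). Plau, the urokinase gene, went the other way, with 172 CPM in WT non-foamy, 158 CPM in Trem2-/- non-foamy and 124 CPM in Trem2-/- foamy cells (-0.47 ± 0.06).

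The chemokine gene Ccl6 was the only one of the 20 that was called between the knockout groups and stood at the WT level. It was at 16.4, 15.6, 15.7 and 14.9 CPM in WT non-foamy cells, at 10.8, 10.1 and 11.98 CPM in Trem2-/- non-foamy cells and at 15.2, 14.4, 16.4 and 14.9 CPM in Trem2-/- foamy cells. The foamy knockout libraries overlapped the WT libraries and all lay above those of the unloaded knockout. Its difference from WT was -0.04 (interval -0.21 to 0.13, adjusted p = 0.003 for equivalence), which was not shown with total counts alone. Ccl9, a related chemokine, also rose with cholesterol, from 25.0 to 44.1 CPM, but stayed below the 68.9 CPM of WT non-foamy cells (-0.64 ± 0.07). Ndrg1 came within the margin from above, with 338 CPM without cholesterol, 260 CPM with it and 231 CPM in WT, and was still called (0.17 ± 0.07, adjusted p = 0.046, edgeR), a call lost in 9 alternatives. Slc39a10, a zinc importer, was called inside 1.3-fold as well (0.19 ± 0.07), with 84.7 CPM without and 109 CPM with cholesterol against 95.5 CPM in WT, and lost the call in 4.

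**Figure D3:**
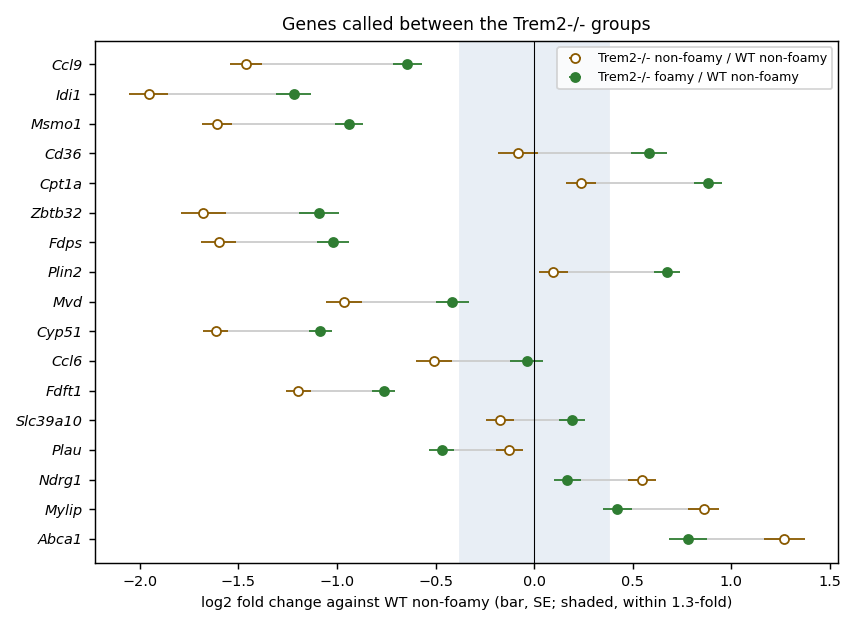
Log2 fold change against WT non-foamy cells (x axis, bars show SE) of 17 of the 20 genes called between the Trem2-/- groups (y axis), with open points for Trem2-/- non-foamy and filled points for Trem2-/- foamy cells, and the span of 1.3-fold shaded. The filled points of Ccl6, Slc39a10 and Ndrg1 lie in the shaded span, those of the synthesis genes lie left of it, and those of Plin2, Cd36 and Cpt1a have left it to the right.

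In all, 361 genes that averaged 1 CPM or more were at the WT level in Trem2-/- foamy cells and called between Trem2-/- non-foamy and WT non-foamy cells. With the same WT libraries in both comparisons, this count describes positions and is not a test of a change with cholesterol. The 10 with the largest non-foamy difference were Ccl6, Plppr3, Mettl26, Id2, Alkbh2, Nmnat1, Csf1, Herpud2, Rel and Rassf1. Id2, an inhibitor of helix-loop-helix factors, was at 110, 118, 136 and 111 CPM in WT non-foamy, 136, 125, 121 and 135 CPM in Trem2-/- foamy and 158, 174 and 156 CPM in Trem2-/- non-foamy cells. The foamy knockout overlapped WT and lay below the unloaded knockout, but the step between the knockout groups was not called (-0.33 ± 0.08, adjusted p = 0.21, edgeR), and without WT non-foamy replicate 3 Id2 was no longer shown to be at the level. Mettl26 stood at 27.9 ± 3.61 CPM (SD, n = 4) in WT non-foamy, 27.6 ± 0.567 CPM in Trem2-/- foamy and 20.1 CPM in Trem2-/- non-foamy cells, and was at the level in every alternative run. Of the others, Plppr3, Herpud2, Rel, Alkbh2 and Rassf1 lost this standing in 9 to 12 alternatives, Csf1 in 5 and Nmnat1 in 2.

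All 32 tested genes of DNA replication and S phase were lower in Trem2-/- foamy cells, against 21.7% of all tested genes. Their log2 fold changes ran from -1.50 to -0.42 with a median of -0.93, and the count was the same in every alternative. Their sum was 3355 to 3516 CPM in WT non-foamy cells and 1794 to 1964 CPM in Trem2-/- foamy cells. Of 30 tested genes of mitosis and G2/M, 28 were lower and 1 higher, against 21.7% and 20.6% of all tested genes, with a median of -0.59. In Trem2-/- non-foamy cells 28 of these were called lower than in WT non-foamy cells and none higher, with a median of -0.62. In bulk RNA, fewer cells in a phase and less RNA per cell cannot be told apart.

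Of 13 tested genes of the D cyclins with their kinases and inhibitors, which govern entry into the cycle, 10 were lower and 2 higher, with 1 higher without Trem2-/- foamy replicate 4, without WT non-foamy replicate 1 and with total counts alone. Of all tested genes, 21.7% were lower. Ccnd2 was at 54.8, 53.7, 43.5 and 59.6 CPM in WT non-foamy cells and at 9.65, 7.12, 8.54 and 7.69 CPM in Trem2-/- foamy cells, a log2 fold change of -2.68 ± 0.10 (adjusted p = 1.8e-14, edgeR). Ccnd1 had a log2 fold change of -1.52 ± 0.11 and Ccnd3 of -0.72 ± 0.09. The groups were separate in all of these. The kinases changed less: Cdk6 was lower (-0.42 ± 0.10), and Cdk4 was called inside 1.3-fold (-0.20 ± 0.05). Of the inhibitors, Cdkn1b (p27) was higher by 0.44 ± 0.07, Cdkn1a (p21) was lower (-0.32 ± 0.07), and Cdkn2c was at the WT level (0.09 ± 0.11), a standing lost in 7 alternatives. Of the Ccnd1 exons, 23.4% overlap another gene, and of the Cdk4 exons 19.7%.

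Among the replication genes, Mcm6, a subunit of the helicase, was at 415, 407, 365 and 402 CPM in WT non-foamy cells and at 205, 202, 208 and 195 CPM in Trem2-/- foamy cells (log2 fold change -0.97 ± 0.06, adjusted p = 1.5e-11, edgeR). Mcm5 was at 156, 166, 127 and 166 CPM against 70.2, 74.2, 69.3 and 52.4 CPM (-1.21 ± 0.10). In neither gene did any knockout library come near a WT library. Rrm2, which supplies nucleotides, had a log2 fold change of -1.46 ± 0.08, Uhrf1, which keeps DNA methylation, -1.50 ± 0.11, and Pcna, the sliding clamp, -0.62 ± 0.07. E2f1, the factor that drives many of them, was lower by less (-0.44 ± 0.08).

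In mitosis, Top2a, the topoisomerase, was at 451, 438, 395 and 436 CPM against 280, 279, 278 and 286 CPM (-0.62 ± 0.05, adjusted p = 8.2e-09, edgeR). Cdk1 (-0.60 ± 0.06), Ccna2 (-0.67 ± 0.06), Plk1 (-0.95 ± 0.12) and the proliferation marker Mki67 (-0.50 ± 0.07) were lower too. Cenpa, the centromeric histone, was the member that was higher, at 67.4, 69.7, 75.1 and 70.5 CPM against 88.9, 79.4, 79.1 and 80.3 CPM. This difference was inside 1.3-fold (0.21 ± 0.06, adjusted p = 0.0063) and was not called with total counts alone. Nusap1 was lower inside 1.3-fold (-0.21 ± 0.06), and Cdc25b was unresolved (-0.18 ± 0.08), called lower without WT non-foamy replicate 3.

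The promoters of the cell cycle lists were searched in the same way, for 26 S phase and 24 G2/M genes. An E2F site, TTTCCCGC or TTTGGCGC on either strand, was found in 5 S phase genes (19.2%) and in no G2/M gene, against 2.93% of tested genes and 1.3% of all promoters. The letters TTTGAA, the CHR element of late cell cycle genes, were found in 9 G2/M genes (37.5%) and 3 S phase genes (11.5%), against 13.3% of tested genes and 16% of all promoters. CCAAT was found in 20 G2/M genes (83.3%) and 15 S phase genes (57.7%). All 26 S phase genes were lower, with or without an E2F site. The lines give 100 bases of the strand of the gene, 5′ to 3′, with the E2F site of Mcm6 (chr1:128359706-128359805, minus strand) and Mcm5 (chr8:75109314-75109413, plus strand) and the CHR element of Top2a (chr11:99024190-99024289, minus strand), read on either strand, in capitals.
Mcm6: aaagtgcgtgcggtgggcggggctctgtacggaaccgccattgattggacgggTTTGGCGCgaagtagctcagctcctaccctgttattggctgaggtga
Mcm5: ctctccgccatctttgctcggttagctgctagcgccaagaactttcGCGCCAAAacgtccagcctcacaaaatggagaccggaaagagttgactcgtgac
Top2a: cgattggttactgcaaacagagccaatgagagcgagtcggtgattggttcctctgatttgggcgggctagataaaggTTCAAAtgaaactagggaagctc

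The partners of Trem2 did not move in 1 direction. Of 12 tested genes of the receptor complex and its signalling, 3 were higher, 3 lower, 3 at the WT level and 3 unresolved. The 6 called genes compare with 42.3% of all tested genes. Without WT non-foamy replicate 3 the list had 4 higher, 6 lower and 1 at the level, and with total counts alone 3 higher, 6 lower and none at the level. The adaptor Tyrobp was at 1140, 1118, 1582 and 1099 CPM in WT non-foamy cells and at 1791, 1730, 1773 and 1811 CPM in Trem2-/- foamy cells (0.52 ± 0.10), so that WT non-foamy replicate 3 stood nearer to the knockout libraries than to its own group. The kinase Syk was higher by 0.43 ± 0.08 and the adaptor Grb2 by 0.72 ± 0.06. The phosphatase Ptpn6 (-0.57 ± 0.07) and the lipid kinase Pik3cd (-0.37 ± 0.09) were lower, with Trem2. Akt1, Vav1 and Inpp5d were at the WT level (-0.13 ± 0.06, -0.10 ± 0.09 and -0.02 ± 0.09), but not with total counts alone. Akt1 and Vav1 also lost this standing without WT non-foamy replicate 3, and Vav1 without Trem2-/- foamy replicate 2.

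Genes of alternative activation, the state brought about by interleukin-4, were mostly higher among those that could be tested. Of 16 listed genes 9 passed the filter on low counts, and of these 7 were higher and none lower in every alternative, against 20.6% of all genes higher. Among those that failed it, Chil3, Retnla, Ccl17, Cd163 and Cd209a had no counts in the 8 libraries. Ccl22 and Il10 had at most 6 and 2 counts in a library. The median log2 fold change of the 9 tested genes was 0.82. In Trem2-/- non-foamy cells 8 of these were called higher than in WT non-foamy cells and none lower, with a median of 0.68. Arg1, which breaks down arginine, was at 16.7, 17.5, 16.4 and 15.04 CPM in WT non-foamy cells and at 138, 141, 130 and 148 CPM in Trem2-/- foamy cells, a log2 fold change of 3.09 ± 0.06 (adjusted p = 3.0e-19, edgeR). Mrc1, the mannose receptor CD206, was at 37.9, 38.8, 39.2 and 39.9 CPM against 162, 151, 153 and 165 CPM (2.02 ± 0.05). The knockout libraries of both genes were close to each other and far from WT. The interleukin-4 receptor gene Il4ra was higher by 0.69 ± 0.11 and the lectin Mgl2 by 0.98 ± 0.11. Klf4 (-0.09 ± 0.25) and Socs2 (0.14 ± 0.13) were unresolved.

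**Figure D4:**
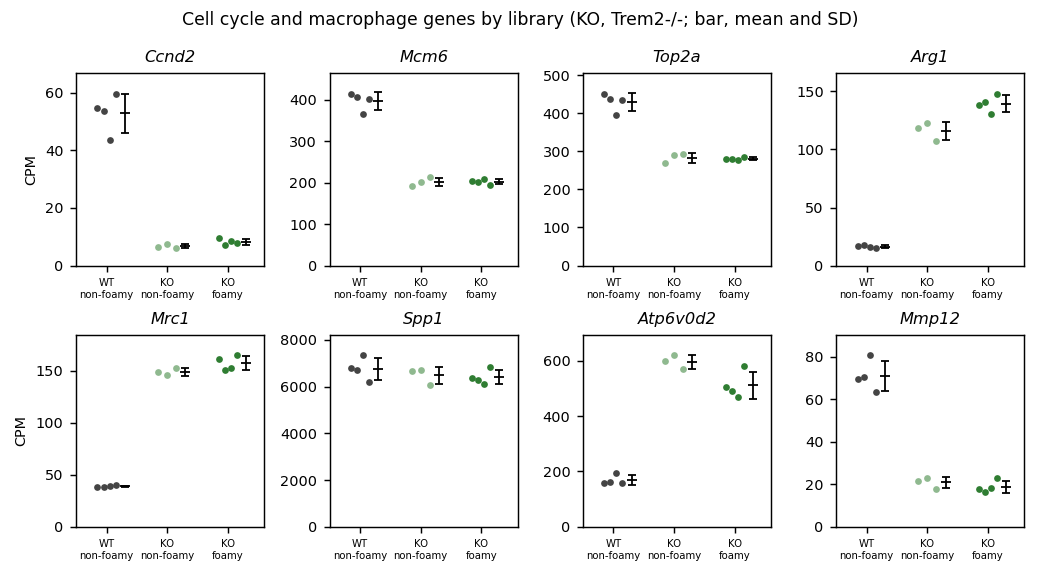
CPM (y axis, from 0) of 8 genes of the cell cycle and of macrophage activation in the WT non-foamy, Trem2-/- non-foamy and Trem2-/- foamy libraries (x axis), with 1 point a library and a bar for mean and SD. Arg1, Mrc1 and Atp6v0d2 in both knockout groups lie far above the WT libraries, Ccnd2, Mcm6, Top2a and Mmp12 below them, and Spp1 overlaps them.

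Of 12 tested genes of classical activation, 4 were higher, 1 lower and 2 at the WT level, a called share near the 42.3% of all tested genes. Il1a was at 0.596, 0.741, 1.19 and 1.09 CPM against 7.09, 6.81, 7.56 and 5.72 CPM (2.92 ± 0.18, adjusted p = 2.6e-11, edgeR), while Tnf was at 10.6, 9.05, 9.95 and 10.5 CPM against 5.12, 7.12, 5.44 and 4.42 CPM (-0.86 ± 0.12). Both were separate between the groups and in opposite directions. Irf1 was higher by 0.64 ± 0.09, Irf5 was at the WT level in every alternative (0.09, interval -0.06 to 0.24), and Nos2 (0.29 ± 0.15) and Il1b (0.40 ± 0.28) were unresolved. Among 9 chemokines, Ccl2 (-1.93 ± 0.25), Ccl3 (-0.83 ± 0.06), Ccl4 (-1.26 ± 0.09) and Ccl9 were lower and Pf4 was higher (0.58 ± 0.08). Of all tested genes, 21.7% were lower and 20.6% higher. A second gene was called higher in several alternatives, among them the run without WT non-foamy replicate 3.

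Genes known from disease-associated microglia and lipid-associated macrophages were mostly higher, 14 of 19 with 1 lower, 3 at the WT level and a median of 0.64, against 20.6% of all genes higher. Without WT non-foamy replicate 3, 2 were lower, and without Trem2-/- foamy replicate 1, 1 was at the level. Trem2-/- non-foamy cells also had 14 of the 19 called higher than WT non-foamy cells and 1 lower, with a median of 0.64. Gpnmb, a glycoprotein of loaded lysosomes, was at 3766, 4102, 3490 and 3989 CPM in WT non-foamy cells and at 6500, 6881, 6184 and 5751 CPM in Trem2-/- foamy cells (0.72 ± 0.08). Spp1, which encodes osteopontin, was at 6787, 6696, 7351 and 6209 CPM against 6376, 6301, 6113 and 6824 CPM, so the groups overlapped. Its difference of -0.08 (interval -0.23 to 0.08) was inside the margin (adjusted p = 0.0033 for equivalence), except with total counts alone, and 18.8% of its exons overlap another gene. Lpl, the lipoprotein lipase, was the member that was lower (-0.48 ± 0.06). Clec7a, Itgax, Igf1 and Lgals3 were higher by 0.64 to 0.82. Cst7 and Csf1, also at the level, lost that standing in 5 alternatives each.

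Of 13 tested homeostatic genes of microglia, 6 were higher and 5 lower, against 20.6% and 21.7% of all tested genes, and 3 were lower with at least 10 counts required in every library. P2ry12 (1.74 ± 0.508 CPM against 0.81 ± 0.139 CPM, SD, n = 4) and Cx3cr1 (1.54 ± 0.292 CPM against 0.507 ± 0.245 CPM) were low in both groups and lower in Trem2-/- foamy cells. Mertk, a receptor for dying cells, was higher by 1.07 ± 0.08 and Csf1r, the receptor for the growth factor of macrophages, by 0.54 ± 0.08, and the factor Mef2c was lower (-0.60 ± 0.06). Among matrix proteases, Mmp12, the macrophage elastase, was at 69.5, 70.3, 80.7 and 63.3 CPM in WT non-foamy cells and at 17.6, 16.2, 18.4 and 23.0 CPM in Trem2-/- foamy cells (-1.92 ± 0.10, adjusted p = 4.7e-12, edgeR). The lowest WT library was thus far above the highest knockout library. Adam8 was lower (-0.57 ± 0.09), and Mmp19 and the inhibitor Timp2 were higher (0.69 ± 0.10 and 1.197 ± 0.07).

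Of 26 tested lysosome genes, 22 were higher, none lower and 3 at the level, against 20.6% of all genes higher. Without Trem2-/- foamy replicate 4, 1 was lower and 1 at the level. Their median log2 fold change was 0.61, and their sum was 21351 to 23140 CPM in WT non-foamy cells and 34706 to 36748 CPM in Trem2-/- foamy cells. In Trem2-/- non-foamy cells 22 of these genes were also called higher than in WT non-foamy cells and 1 lower, with a median of 0.62. Atp6v0d2, a subunit of the proton pump, was at 160, 160, 194 and 157 CPM against 504.3, 490, 468 and 582 CPM (1.61 ± 0.08, adjusted p = 2.1e-12, edgeR). The knockout libraries all lay above the highest WT library. The proteases Ctsk, Ctsb, Ctsd and Ctss were higher by 0.71 to 0.97, Psap, which activates sphingolipid breakdown, by 0.96 ± 0.08, and Tfeb, a factor that drives lysosomal genes, by 0.71 ± 0.09. Neu1 (0.18 ± 0.07) and Ctsc (-0.15 ± 0.07) were at the WT level and lost that standing in 8 and 2 alternatives.

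Of 20 tested genes of the unfolded protein and integrated stress response, 5 were higher, near the 20.6% of all tested genes, and 11 were lower, against 21.7%. The 2 genes at the WT level became 4 without Trem2-/- foamy replicate 2. Asns, the asparagine synthetase, was at 61.4, 60.5, 61.7 and 60.0 CPM in WT non-foamy cells and at 34.0, 31.3, 30.03 and 31.4 CPM in Trem2-/- foamy cells (-0.94 ± 0.06). Sdf2l1, an ER chaperone partner, was lower by a like amount (-0.87 ± 0.07), and the factor Atf4 by less (-0.40 ± 0.06). Ddit3, which encodes CHOP, went the other way, with 4.82, 4.64, 6.12 and 4.51 CPM against 7.98, 8.40, 8.54 and 8.65 CPM (0.75 ± 0.13, adjusted p = 5.9e-05, edgeR). Atf6 was at the WT level in every alternative (0.09 ± 0.05), although its knockout libraries (183 to 191 CPM) all lay just above its WT libraries (169 to 181 CPM). Xbp1 was called inside 1.3-fold (0.16 ± 0.06), a call lost in 7 alternatives.

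Nuclear genes of oxidative phosphorylation were often at the WT level. Of 26 tested genes, 14 were at the level, against 21.2% of all genes, 5 were higher and 6 lower, with a median of 0.03. Of the 26, 1 was unresolved, against 36.5% of all tested genes, so the shares at the level are not on an equal footing. The called share equals the 42.3% of all genes. Without WT non-foamy replicate 3, 8 were higher and 3 lower, without Trem2-/- foamy replicate 2, 3 were lower, and with total counts alone 2 were higher and 11 lower. Of 28 proteasome genes, 7 were at the level and 21 lower (median -0.32), against 21.2% and 21.7% of all genes. With total counts alone these became 1 and 27. Of 14 glycolysis genes, 3 were at the level, 4 higher and 7 lower, against 21.2%, 20.6% and 21.7% of all genes. Without Trem2-/- foamy replicate 4 or WT non-foamy replicate 1, 5 of them were at the level, as with total counts alone, where 1 was higher. Of 16 interferon-stimulated genes, 2 were at the level, 6 higher and 8 unresolved, which is no larger a called share than the 42.3% of all genes. The 6 became 3 without WT non-foamy replicate 1 and with total counts alone. Of 30 cytoplasmic ribosomal protein genes, 21 were called higher, against 20.6% of all genes. In only 1 of the 30 were the groups without overlap, against 35.8% of all genes. Their sum was 59399, 58374, 78847 and 58033 CPM in WT non-foamy replicates 1 to 4 and 72826 to 82863 CPM in Trem2-/- foamy cells, so replicate 3 of WT lay in the range of the knockout. Without that library all 30 were called higher, and without Trem2-/- foamy replicate 4 or any other WT non-foamy library 11 to 13 were.

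**Figure D5:**
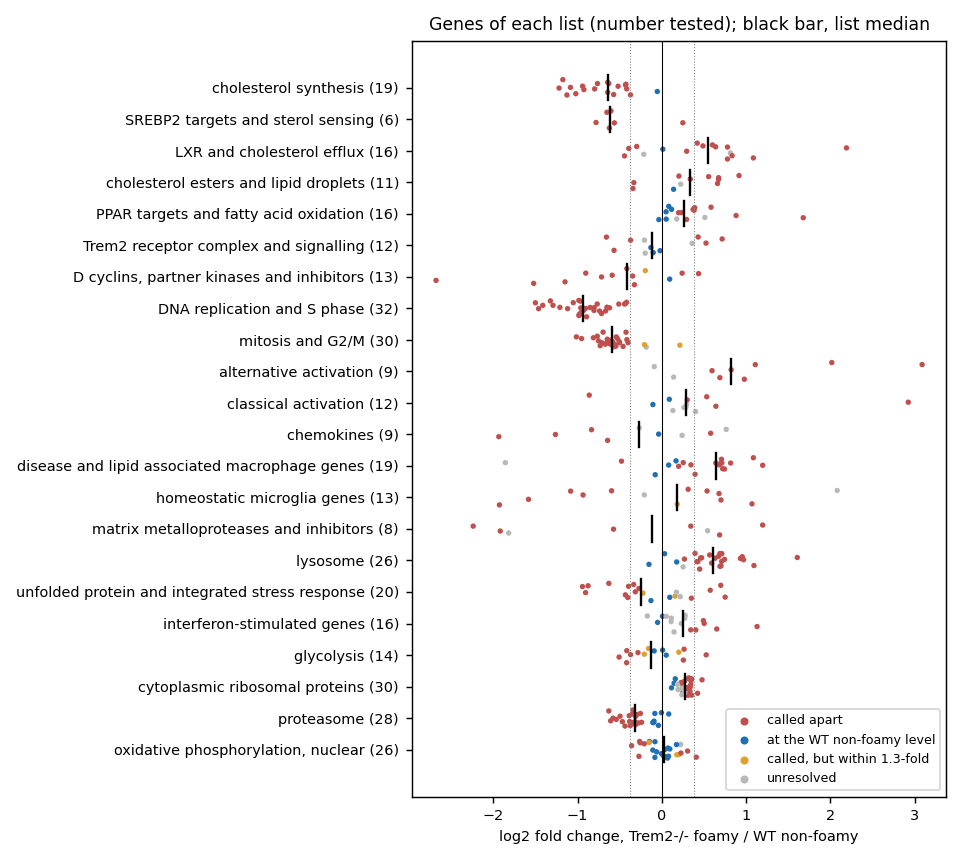
Log2 fold change of Trem2-/- foamy against WT non-foamy cells (x axis) for the tested genes of 22 lists (y axis, number tested in brackets), with 1 point a gene coloured by class, a black bar at the median of the list and dotted lines at 1.3-fold. Replication, mitosis and sterol synthesis lie left of 0 nearly whole, the lysosome and alternative activation lie right of it, and oxidative phosphorylation straddles it with most of its points at the WT level.

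Where the 8 libraries averaged 1 CPM or more and the groups did not overlap, Tlr8, a receptor for single-stranded RNA, was higher by the most, with 0.156, 0.0644, 0 and 0.112 CPM in WT non-foamy cells and 2.89, 3.18, 3.51 and 3.64 CPM in Trem2-/- foamy cells (log2 fold change 5.09 ± 0.44). It rests on 13 counts in the WT libraries. Arg1, Adra1a, Il1a, Slc36a2, Mgst1, H2-DMb1, Apoc4, Gadd45a, Gm7476, Vnn3 and Acp5 followed, with log2 fold changes of 2.602 to 3.09. H2-DMb1, a chaperone of MHC class II loading, was at 3.71, 3.41, 4.18 and 3.19 CPM against 23.0, 24.8, 24.1 and 23.7 CPM (2.73 ± 0.09), with 22.7% of its stretches of 50 bases found in other genes. Gm7476 was at 14.6 CPM in Trem2-/- foamy replicate 3 against 1.17 to 1.78 CPM in the others and 0.515 to 1.01 CPM in WT non-foamy cells. It shares 52% of such stretches and was not called by DESeq2.

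On the other side, Syde2 was at 4.56, 3.61, 3.17 and 3.53 CPM in WT non-foamy cells, 518 counts in all, and had 2 counts in the 4 Trem2-/- foamy libraries. Raet1e, a ligand of the receptor NKG2D, had 295 counts against 1, and shares 44.7% of its stretches of 50 bases with other genes. Mst1, which encodes a secreted ligand of the receptor RON, was at 5.73, 6.67, 5.59 and 5.85 CPM against 0.0556, 0.0636, 0.0633 and 0 CPM. The means of Syde2, Raet1e and Mst1 in Trem2-/- non-foamy cells were 0, 0.011 and 0.106 CPM. Rbpms, Tenm4, Rbp4, Dclk2, Rhox5, Etv4, Ptgds, Tmem223 and Cd38 followed, with log2 fold changes of -5.98 to -3.64. Tmem223 was at 21.3 ± 3.23 CPM (SD, n = 4) against 1.15 ± 0.43 CPM. Of the stretches of 50 bases of Tmem223, 16.2% occur in other genes.

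Other named genes have counts made less certain by neighbours or copies. Exons overlap another gene over 42.7% of Rassf1, 34.4% of Ctsd, 29.5% of Alkbh2, 28.3% of Mmp19, 19.1% of Gadd45a, 18.3% of Fdft1, 16% of Abhd5 and 15.1% of Csf1r. The share of stretches of 50 bases that recur in other genes was 32.4% for Ctsd, 19.7% for Hadhb, 19.1% for Pcna and 15.4% for Uhrf1.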

How the data were processed

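BV2 cells had been lysed in Trizol, and RNA was sequenced from TruSeq libraries. The authors deposited raw counts of reads per gene (trimming, HISAT2 alignment and featureCounts, per the methods of the study, with mm10 named in the labels), and strand and multi-mapping settings are not given in the sources used here. Among counts of 1 to 10 only 16.8% were odd, and a run on halved counts was added after seeing the data.

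The 8 libraries compared held 23538963 to 41683825 counts, and the number of libraries limits the precision beyond counting error. The counts of all 15 libraries were fitted with 1 mean per group in edgeR 4.0.16 (R 4.3.3) with TMM factors and filterByExpr at a minimum count of 10. The quasi-likelihood test of Trem2-/- foamy against WT non-foamy cells was two-sided, with Benjamini-Hochberg adjustment and a threshold of 0.05. Equivalence used 2 one-sided tests against a margin of 1.3-fold, adjusted likewise. Both were tested on simulated data with few changed genes, where 97% of genes changed by 1 (log2) were called. Unchanged genes made up 4.78% of the calls there, and 60.3% of unchanged genes were placed at the level. So were 4% of genes set at the margin. The simulation had no outlying library and gave 314 calls, against 6016 in the data, so its rates need not hold here. Alternatives were other scalings and filters, DESeq2 1.42.0, the 8 libraries alone, a replicate block, other margins and leaving out each library in turn.

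Named genes were the members of functional lists that carry the account, the 12 called genes with the largest difference in each direction (mean of at least 1 CPM, groups without overlap) and the 10 genes at the WT level with the largest difference in unloaded knockout cells. The members and lists were chosen with earlier results of these data known. Lists are described by counts and medians without a test of the list. Gene overlap and shared stretches of 50 bases come from the GENCODE annotation of GRCm38, and promoters from RefSeq. Some genes among those counted are not reported here.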

Additional observations from a re-analysis of the deposited data

Results flagged for a closer look

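In 334 groups of 4 libraries (167 genes in both groups), 1 library lay far from the other 3 in 30, or 8.98%, by a gap above Dixon's critical value at the 95% level. Chance gives about 1 in 20 for independent values with a normal spread. Genes of 1 library are not independent, and in Syde2, Raet1e and Rbpms the other libraries of the flagged group were at 0. The flagged share is therefore a description and not a test. WT non-foamy replicate 3 accounted for 12 of these. It was high in Tyrobp (1582 CPM against 1099 to 1140 CPM in the others), Npc2 (1419 CPM), Insig2 (52.9 CPM), Cdk4 (371 CPM), Pf4 (152 CPM), Atp6v0d2 (194 CPM), Ctsk (3179 CPM) and Ctss (2077 CPM). It was low in Inpp5d (62.9 CPM against 76.8 to 79.4 CPM), Sqle (118 CPM), Abcg1 (34.4 CPM) and Mertk (25.2 CPM). In the same group, replicate 2 was high in Cdkn1b (35.6 CPM) and Cd38 (2.48 CPM), and replicate 4 was high in Rrm2 (48.2 CPM) and low in Xbp1 (133 CPM).

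Trem2-/- foamy replicate 4 was high in Fabp4 (237 CPM against 201 to 206 CPM in the others) and Vnn3 (19.2 CPM) and low in Uhrf1 (32.1 CPM), Cdt1 (51.4 CPM), Cdc25b (46.9 CPM) and Mst1 (0 CPM). Replicate 1 was high in Fdft1 (57.4 CPM), Dgat2 (17.7 CPM), Cenpa (88.9 CPM) and Syde2 (0.0556 CPM against 0 CPM). Replicate 3 was low in Trem2 (218 CPM against 226 to 227 CPM) and high in Gm7476 (14.6 CPM against 1.17 to 1.78 CPM), Raet1e (0.0316 CPM against 0 CPM) and Rbpms (0.127 CPM against 0 CPM). For Syde2, Raet1e and Rbpms the single library holds all the counts of the group.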

How the results depend on the processing

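The number of genes called (6016) and the number at the WT level (3021) stayed within 1.5 times of these values under each alternative scaling, filter, tool and choice of libraries, and moved with the threshold itself. Requiring an absolute log2 fold change of 1 left 715 called genes, and margins of 1.2-fold and 1.5-fold placed 311 and 4827 genes at the level, so the second count is a statement about 1.3-fold. Leaving out 1 library gave 5283 to 6250 called and 2609 to 2990 at the level. With a replicate block, 5856 genes were called and 2977 were at the level. Deviations of same-numbered libraries from their groups had correlations of -0.10 to 0.04, and no library correlated best with its own number. The highest correlation (0.107) was between WT non-foamy replicate 3 and Trem2-/- foamy replicate 4, which leaned the same way on short genes. Whether same-numbered libraries were prepared together was not tested. DESeq2 gave 6273 and 3049, the 8 libraries alone 5673 and 2885. With total counts alone 6090 genes were called, 1763 higher and 4327 lower, and 2297 were at the level. Of the 3021 genes, 1436 stayed at the level in that run and 700 were called. Added after seeing the data, halved counts gave 6085 and 3007, and leaving out WT non-foamy replicate 3 with Trem2-/- foamy replicate 4 gave 5885 and 2960. Over the named genes that were followed, 2684 alternative values kept their call or standing, 134 lost it and 4 gained a call. The called gene mt-Nd3, described below, was not among the genes followed. No called gene that was followed changed direction. Genes that were not called did change sign around 0, such as Ebp (0.03 without WT non-foamy replicate 3) and Nr1h2 (-0.12 with total counts alone). In all, 5200 genes could not be placed.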

Other observations

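The mitochondrial gene mt-Nd3, named after its values were seen, was at 1.04, 1.06, 1.19 and 0.87 CPM in WT non-foamy cells and at 135, 0.70, 0.70 and 0.71 CPM in Trem2-/- foamy cells. It was called higher (log2 fold change 5.08 ± 2.11 SE, adjusted p = 0.037, edgeR), with 1 library far above and the other 3 below every WT library. In Trem2-/- non-foamy cells it was at 1.14, 0.505 and 93.9 CPM, so that 1 library was again far above the others.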
